A study of Mus musculus with 1479 samples.

Results

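The cells described here are the 125 cells that the sample labels place in cluster 10, out of 1479 cells sorted singly from urinary bladders of mice. They were chosen by the level of Rgs5, measured in CPM (the counts of a gene per 1000000 endogenous reads of the cell, spike-in reads left out). Cells at 200 CPM or more are called Rgs5-high (37 cells), cells under 20 CPM are called Rgs5-low (77 cells), and the 11 cells between these limits were left out of the comparison. Every other gene was then compared between both classes within the same plate and the same mouse line. All cells came from bladders of male mice of 10 to 20 weeks. Of the cluster 10 cells, 65 came from Cspg4dsRED mice, 45 from PdgfrbGFP mice, 12 from Acta2GFP mice and 3 from C57BL6 mice, which carry no reporter. In the first 3 lines a fluorescent protein stands under the control of the named gene and served to sort the cells, so each line enriches for cells that use its own driver. According to the study's methods, CD31-positive cells were excluded from the sort, C57BL6 cells were stained with antibodies against PDGF receptors, and elastase was added to the digestion of Acta2GFP tissue. Each cell was made into 1 Smart-seq2 library, a full-length cDNA protocol without molecular identifiers.

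Mural cells wrap around blood vessels. Pericytes sit on capillaries inside the basement membrane of the endothelium, while vascular smooth muscle cells form the contractile wall of arteries and veins, and intermediate forms exist between them. Rgs5 encodes a regulator that shortens the signal of G protein-coupled receptors and is widely used as a mural marker. Kcnj8 and Abcc9 encode the pore and the regulatory subunit of an ATP-sensitive potassium channel (KATP channel) of pericytes and some smooth muscle. Myh11 encodes the smooth muscle myosin heavy chain, and Acta2 encodes smooth muscle α-actin, the main contractile actin of the vessel wall.

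The Rgs5 levels themselves chose the classes and are given as a description only. The 37 Rgs5-high cells ranged from 269.4 to 6597 CPM with a median of 2111 CPM. Of these, 23 cells were at 1000 CPM or more and 14 cells lay between 200 and 1000 CPM. Among the 77 Rgs5-low cells, 56 had no Rgs5 read, and the other 21 had at most 7 reads each. The cell just under the lower limit had 19.6 CPM and the cell just above it 23.4 CPM. The cells on either side of the upper limit had 188 and 269.4 CPM. Rgs5-high cells were found in all 7 combinations of plate and line that held cluster 10 cells. They made up 22.4% of the 49 cluster 10 cells of Cspg4dsRED mice on plate bladder_352s (exact 95% interval 11.8% to 36.6%), and 50% of the 16 cells of that line on plate bladder_689s (24.7% to 75.3%). In PdgfrbGFP mice the share was 50% of the 20 cells on plate bladder_881s (27.2% to 72.8%) and 9.52% of the 21 cells on plate bladder_515s (1.17% to 30.4%). These intervals cover counting error only.

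**Figure D1:**
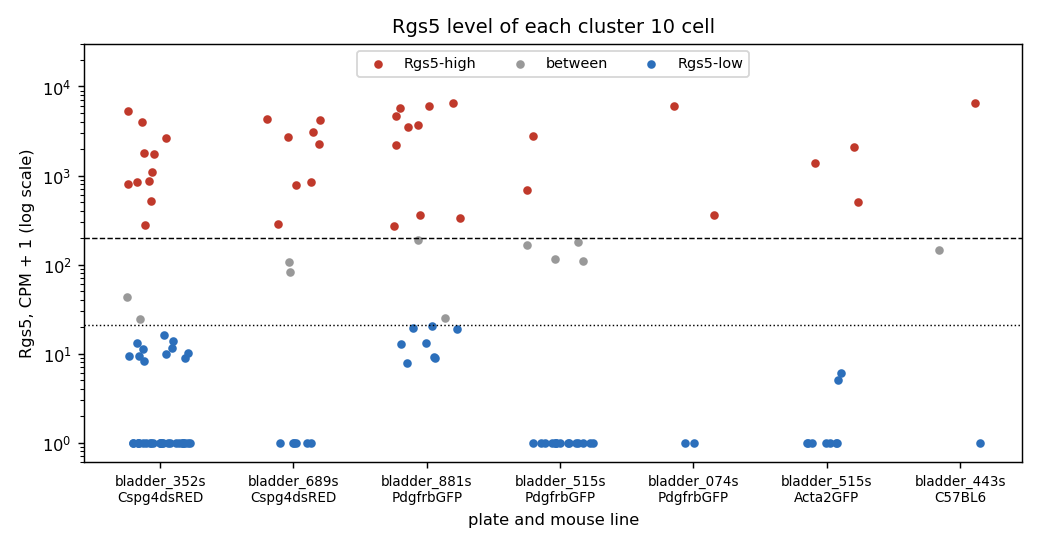
Rgs5 level of each of the 125 cluster 10 cells, as CPM + 1 on a log scale (y axis), by plate and mouse line (x axis). The dashed line marks 200 CPM and the dotted line 20 CPM. Each of the 7 groups holds cells above the dashed line, and 56 cells sit at the bottom with no Rgs5 read.

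A few Rgs5 reads were also found in many cells of other clusters. Outside cluster 10, 204 of 1354 cells had at least 1 Rgs5 read (15.1%, exact 95% interval 13.2% to 17.1%), but 15 of them reached 20 CPM and 2 reached 200 CPM. Where no Rgs5-high cell stood in the same row or column of the plate, 23 of 913 such cells had a read (2.52%), and where at least 1 did, 181 of 441 had one (41%). Rgs5-low cluster 10 cells followed the same order, with 0 of 19 and 21 of 58 cells (36.2%). On plate bladder_881s all 8 Rgs5-low cells of PdgfrbGFP mice had Rgs5 reads, at 6.89 to 19.6 CPM.

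Rgs5-high cells were sequenced more deeply, with a median of 166025 endogenous reads against 107998 in Rgs5-low cells. The difference in median depth was largest in Cspg4dsRED cells of plate bladder_689s, at 169672 against 73917 reads. It was 131510 against 101865 reads in bladder_352s and 154628 against 120508 reads in Acta2GFP cells of bladder_515s. It was small and opposite in PdgfrbGFP cells of plate bladder_881s, at 296845 against 316320 reads. Shares of cells with a read were therefore also taken after thinning every cell to 50000 reads.

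Both classes carried the defining genes of smooth muscle. Myh11 (chr16:14194535-14291372 of GRCm38, minus strand) had a read in 36 of 37 Rgs5-high cells and in all 77 Rgs5-low cells. Its level ran from 0 to 8414 CPM with a median of 3213 CPM in Rgs5-high cells, and from 31.7 to 10604 CPM with a median of 3717 CPM in Rgs5-low cells. Acta2 was read in every cell, at 450 to 17373 CPM (median 7431) in Rgs5-high cells and at 4734 to 21799 CPM (median 12352) in Rgs5-low cells. The Rgs5-high class reached down to lower values of both genes, but the bulk of the classes overlapped.

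Kcnj8 (chr6:142564837-142571614, minus strand), the channel gene used as a pericyte marker, did not separate the classes. It had a read in 9 of 37 Rgs5-high cells (24.3%) and in 19 of 77 Rgs5-low cells (24.7%), and after thinning in 21.6% and 18.2%. Outside cluster 10, at a median of 222572.5 endogenous reads, 9.68% of cells had a Kcnj8 read, or 3.56% after thinning. Its mean level over cells was 216 CPM in Rgs5-high and 97.7 CPM in Rgs5-low cells, and its median was 0 in both. There were 5 cells of the first class and 10 cells of the second class at 200 CPM or more, with highest values of 2909 and 1353 CPM.

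Other pericyte markers differed in how often they were read. Higd1b, a hypoxia-inducible mitochondrial gene typical of pericytes, had a read in 17 of 37 Rgs5-high cells (45.9%) and 12 of 77 Rgs5-low cells (15.6%), and 45.9% and 13% after thinning. The share outside cluster 10 was 3.18%. Abcc9 was read in 56.8% and 28.6% of cells, and in 40.5% and 16.9% after thinning, but cells outside cluster 10 had it in 63.7%, so a read of this gene is not particular to mural cells here. Vtn, which encodes vitronectin, had a read in 6 Rgs5-high and 3 Rgs5-low cells, and reached 200 CPM in 3 and 0 cells. Steap4, a metalloreductase, was read in 9 and 2 cells, and in 25.6% of cells outside cluster 10. These shares are over cells, which share plates and mice and are not replicates, so no test was made on them. They pool plates and lines, and bladder_881s gave 10 of the 37 Rgs5-high but 8 of the 77 Rgs5-low cells. Nearly all cells of both classes had an Abcc9 read there. Abcc9 shares were alike in bladder_352s and in Acta2GFP cells of bladder_515s. They differed clearly in bladder_689s, where no Rgs5-low cell had a read.

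**Figure D2:**
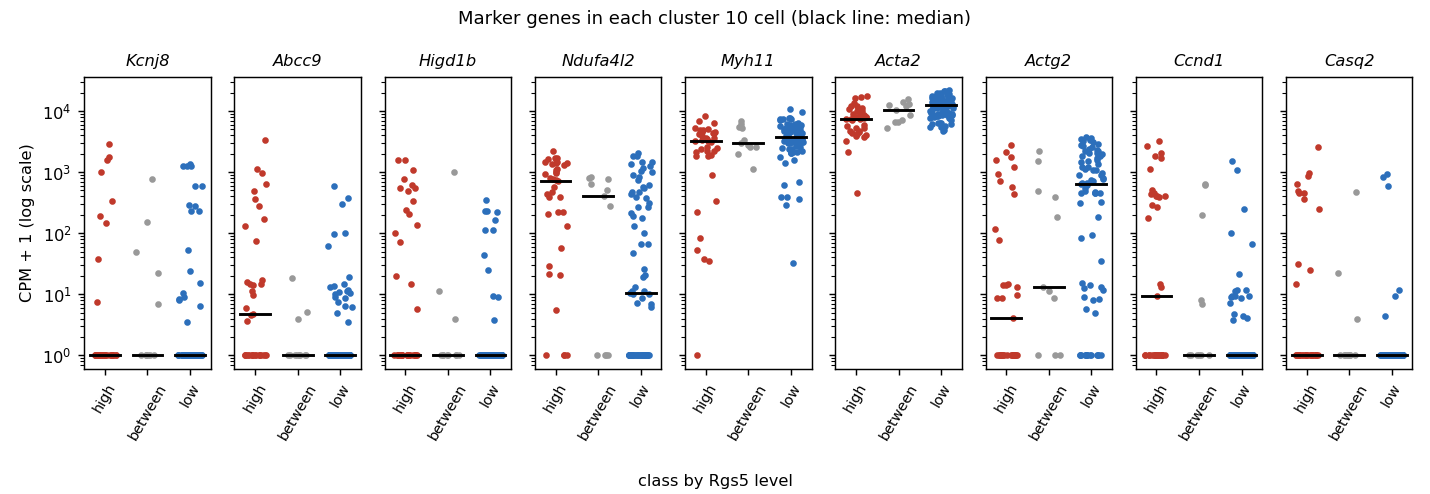
Level of 9 genes in each cluster 10 cell, as CPM + 1 on a log scale (y axis), for Rgs5-high, between and Rgs5-low cells (x axis); black lines are medians. Kcnj8 is spread alike in both outer classes, Myh11 and Acta2 are high in nearly all cells, and the Acta2 median is 7431 CPM in Rgs5-high and 12352 CPM in Rgs5-low cells.

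The names pericyte-like and smooth-muscle-like thus were not borne out by all markers, and the classes are called only by their Rgs5 level below.

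For the comparison between classes, reads were summed over the cells of 1 class, plate and line. A group of plate and line entered when it held at least 3 cells of both classes. This left 4 groups with 32 Rgs5-high and 59 Rgs5-low cells: Cspg4dsRED cells of plate bladder_352s (11 and 36 cells), Cspg4dsRED cells of plate bladder_689s (8 and 6), PdgfrbGFP cells of plate bladder_881s (10 and 8) and Acta2GFP cells of plate bladder_515s (3 and 9). The labels name no animal, so p-values measure the spread between these groups, which may be technical. Of 7151 genes tested with edgeR's quasi-likelihood test, 0 (0%) had both a Benjamini-Hochberg adjusted p under 0.05 and a log2 fold change of 1 or more in size, and every gene had an adjusted p of 1. At an unadjusted p under 0.05 there were 210 genes (2.94%), 83 of them with higher levels in Rgs5-high cells (1.16%) and 127 with lower levels (1.78%). DESeq2 on the same sums called 97 genes higher (1.36%) and 130 lower (1.82%), while limma on mean log2(CPM + 1) per group called 0. Of the 227 genes called by DESeq2, 158 had the same order in all 4 groups, and 214 had reads in fewer than 50% of the 91 cells entered, as had 5508 of the 7151 genes tested. In 13 of the 227, 1 cell gave at least 50% of the reads in the higher class. Without a filter on low counts edgeR called 1 gene higher, Ccnd1, and 5 lower, namely Actg2, Tgm2, Sorbs2, Des and Smtn. The median log2 fold change over all genes tested was -0.22, against which the values below can be read.

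Among the 16 pericyte markers besides Rgs5, 10 had enough reads to be tested. Of these edgeR called 0, and DESeq2 called 1 higher, Higd1b (adjusted p 0.0219), against 1.36% of all genes. Their median log2 fold change was 1.13, but 0.61 with every cell thinned to 50000 reads, 0.62 with sums per line and 0.57 without bladder_689s. Without these changes 2 of 10 had an unadjusted edgeR p under 0.05 in the direction of higher levels in Rgs5-high cells (1.16% of all genes did). In all 4 groups 4 had higher levels in Rgs5-high cells (5.72% of all genes did). These 4 were Higd1b, Ndufa4l2, Cox4i2 and Notch3. Of the 10 tested, 7 had a log2 fold change above 0 and 3 below 0, while 3060 of 7151 were above 0 over all genes. Mcam, on the same list, had a lower mean over Rgs5-high than over Rgs5-low cells, at 804 against 1239 CPM. Ndufa4l2 was also read in 74.1% of cells outside cluster 10, against 89.2% of Rgs5-high and 58.4% of Rgs5-low cells. Ndufa4l2, a hypoxia-inducible subunit-like protein of the respiratory chain, had mean levels of 767, 483, 818 and 481 CPM in Rgs5-high cells of bladder_352s, bladder_689s, bladder_881s and bladder_515s, against 458, 3.24, 349.5 and 60.2 CPM in Rgs5-low cells. Its log2 fold change was 2.37 ± 0.87 (SE, 4 groups), with an adjusted p of 1. Higd1b had 275, 123, 422 and 29.5 CPM against 29.9, 0, 28.3 and 23.2 CPM in the same order, with a log2 fold change of 3.59 ± 1.52. The means of Rgs5-high cells were above those of Rgs5-low cells for both genes in all 4 groups, although the Acta2GFP group differed little in Higd1b. Cox4i2, a cytochrome c oxidase subunit, was at 336 ± 125 CPM against 180 ± 161 CPM (mean ± SD over 4 groups), and the receptor gene Notch3 at 981 ± 384 against 498 ± 269 CPM, both in the same order within every group.

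The channel genes showed no such order. Kcnj8 was at 16.8, 194, 301 and 0 CPM in Rgs5-high cells, against 90.7, 425, 93.7 and 32.6 CPM in Rgs5-low cells of the same groups, and its log2 fold change was -1.84 ± 1.49 (95% interval from the edgeR fit -5.15 to 1.48). Among these 4 groups it was higher in Rgs5-high cells in bladder_881s. Of the groups too small to enter, the single Rgs5-high cell of C57BL6 mice had 2909 CPM against 0 CPM in the single Rgs5-low cell, and PdgfrbGFP cells of bladder_515s had means of 167 (2 cells) and 44.2 CPM (15 cells). Abcc9 was at 15.3, 244, 183 and 1.25 CPM against 11, 0, 7.03 and 23 CPM, with a log2 fold change of 2.48 ± 3.03. Pdgfrb, the PDGF receptor of mural cells, was at 1106 ± 611 against 719 ± 387 CPM, and Cspg4, which encodes the proteoglycan NG2, at 717 ± 710 against 742 ± 354 CPM. The interval of the Pdgfrb difference ran from -0.86 to 0.95 on the log2 scale.

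Most contractile smooth muscle genes had lower levels in Rgs5-high cells, though none of them passed the adjusted edgeR test. DESeq2 called 1 lower, Actg2 (adjusted p 0.00357), against 1.82% of all genes, and edgeR without a filter on low counts called Actg2, Des and Smtn lower. All 22 were tested, 18 had a log2 fold change below 0 (4091 of 7151 over all genes), and the median was -0.49 against -0.22 over all genes. An unadjusted p under 0.05 with lower levels in Rgs5-high cells was found for 9 of 22 (40.9%, against 1.78% of all genes), and with higher levels for 1 of 22 (against 1.16% of all genes). In all, 10 of 22 had lower means in Rgs5-high cells in all 4 groups (45.5%, against 7.75% of all genes and 24.6% of the genes with at least 1000 CPM in either class), and 1 of 22 had higher means in all 4. The 9 genes were Acta2, Tagln, Cnn1, Myl9, Smtn, Des, Tpm2, Ppp1r12b and Itga8.

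Acta2 had mean levels of 12070, 6851, 4706 and 7680 CPM in Rgs5-high cells of bladder_352s, bladder_689s, bladder_881s and bladder_515s, and of 13241, 15161, 5653 and 11254 CPM in Rgs5-low cells. Its log2 fold change was -0.54 ± 0.15 (95% interval -0.86 to -0.21). Myl9, the regulatory light chain of smooth muscle myosin, was at 6791, 3867, 3086 and 4230 CPM against 7894, 7753, 3728 and 6298 CPM. Within each plate both genes were lower in Rgs5-high cells, but the Rgs5-high cells of bladder_352s had more of both than the Rgs5-low cells of bladder_881s. Smtn, which encodes the filament protein smoothelin, had a larger difference. It was at 1664, 215, 664 and 713 CPM against 1768, 1924, 1550 and 2273 CPM, with a log2 fold change of -1.20 ± 0.36. The visceral actin gene Actg2 ranged from 0 to 757 CPM over the Rgs5-high and from 634 to 1937 CPM over the Rgs5-low groups, at a log2 fold change of -4.42 ± 2.17. Actg2 was read in 51.4% of Rgs5-high and 81.8% of Rgs5-low cells. Myh11 itself had no common direction, at 3986, 2259, 2015 and 6422 CPM against 3754, 4294, 3590 and 4137 CPM and a log2 fold change of -0.16 ± 0.25 (95% interval -0.71 to 0.39), which turned to 0.06 when the median gene was set to 0. The genes Lmod1 and Pdlim3, which encode thin-filament and Z-line proteins, and Myocd, which encodes the coactivator of smooth muscle transcription, had log2 fold changes of 0.09, 0.05 and -0.31.

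The size of this difference varied between the groups. In Cspg4dsRED cells of bladder_352s 14 of 22 contractile genes had lower means in Rgs5-high cells, with a median difference of -0.11 in log2(CPM + 1). In bladder_515s it was 16 genes and -0.38, in bladder_689s 18 genes and -0.96, and in bladder_881s 20 genes and -0.64. Over all genes tested the median differences were -0.21, -0.56, 0.42 and 0.01 in the same order. In bladder_352s and bladder_515s the contractile median was not below that of all genes. However, 5508 of the 7151 genes tested had reads in fewer than 50% of the cells entered. The classes held 11 and 36, 3 and 9, 8 and 6, and 10 and 8 cells in these groups. The part of cell number in the medians was not tested, so they are no like baseline for the contractile genes. Depth moved with the classes in 3 groups, as given above. Myl9 had a median of 0.702 and Acta2 of 0.648 reads per exon base over all cluster 10 cells, while Smtn was at 0.0356 and Ppp1r12b at 0.0034. No cell exceeded 0.961 reads per exon base for Acta2 or 1.31 for Myl9. The study's methods state that doublets were removed with samtools between mapping and counting, and do not say whether this means repeated reads of 1 position. The part of this step and of depth in the levels of Acta2 and Myl9 was not tested. Of the 118 genes with a mean of at least 1000 CPM in either class, 18.6% had lower levels at an unadjusted p under 0.05, against 8 of the 14 contractile genes in this range. With every cell thinned to 50000 reads before summing, the median over the contractile genes was -0.65 and the log2 fold change of Acta2 was -0.68. Per cell, Acta2 and Myl9 had reads in all 37 Rgs5-high and all 77 Rgs5-low cells, at medians of 4092 against 6981 CPM for Myl9, whereas Actg2 differed in the share of cells with a read.

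**Figure D3:**
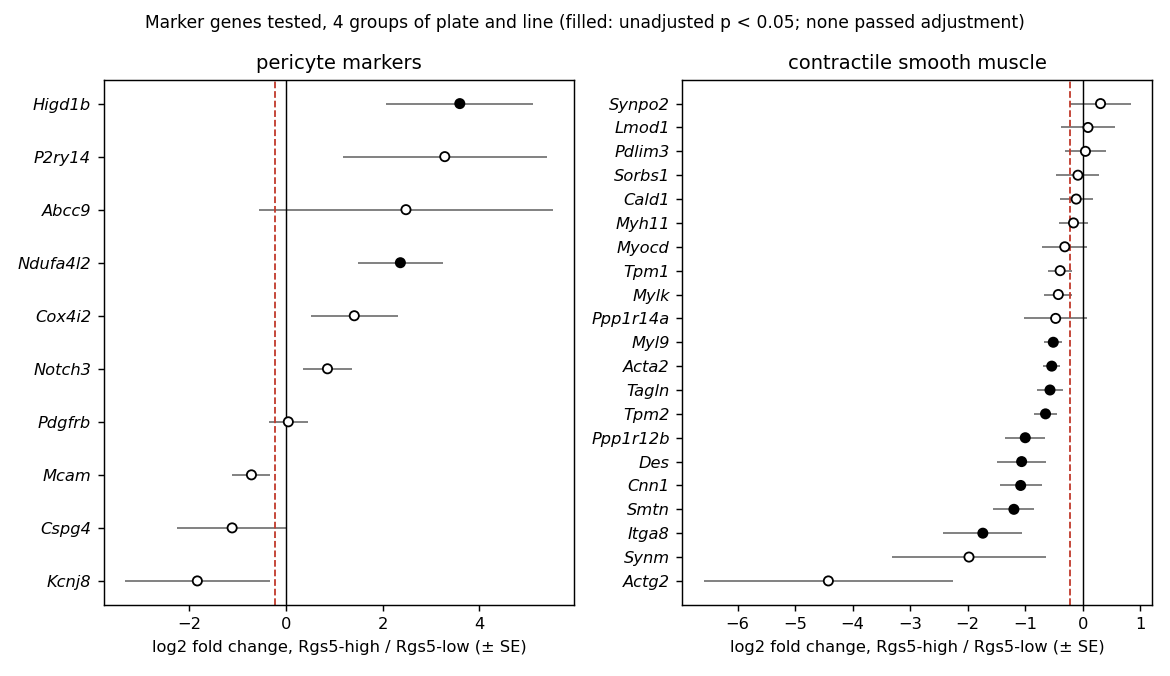
Log2 fold change between Rgs5-high and Rgs5-low cells with its standard error (x axis) for each tested pericyte marker (left) and for the contractile genes but 1 (right), from 4 groups of plate and line. Filled points have an unadjusted p under 0.05 and none passed the adjusted edgeR test; the red dashed line is the median of all 7151 genes, -0.22. Of the contractile genes 18 lie below 0.

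The upstream sequences of the gene that chose the classes and of both most abundant contractile genes are shown for orientation. They cover the 250 bases before the RefSeq gene start (build GRCm38.p6), 5′ to 3′ on the gene's own strand. Capitals mark a full match of the CArG box, the binding motif of serum response factor, searched on both strands. Only its strict form CCWWWWWWGG was searched, where W is A or T.
Rgs5 (chr1:169655251-169655500, plus strand): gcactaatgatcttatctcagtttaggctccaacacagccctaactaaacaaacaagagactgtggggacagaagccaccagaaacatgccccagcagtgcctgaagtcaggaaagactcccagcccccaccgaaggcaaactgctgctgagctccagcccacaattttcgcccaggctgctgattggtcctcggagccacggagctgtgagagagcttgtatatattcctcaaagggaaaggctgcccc
Acta2 (chr19:34255374-34255623, minus strand): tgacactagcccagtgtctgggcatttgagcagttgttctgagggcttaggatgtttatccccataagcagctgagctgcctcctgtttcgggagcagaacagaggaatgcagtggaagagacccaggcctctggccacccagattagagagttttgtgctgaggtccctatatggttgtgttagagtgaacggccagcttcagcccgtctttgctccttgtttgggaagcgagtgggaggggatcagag
Myl9 (chr2:156775214-156775463, plus strand): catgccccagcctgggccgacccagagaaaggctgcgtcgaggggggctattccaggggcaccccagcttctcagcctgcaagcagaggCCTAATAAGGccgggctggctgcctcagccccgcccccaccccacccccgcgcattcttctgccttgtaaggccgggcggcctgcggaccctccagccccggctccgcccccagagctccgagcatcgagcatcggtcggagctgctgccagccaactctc
A full match of this strict form stood in the Myl9 sequence, 161 bases before the gene start, and none in the other 2. The Acta2 sequence holds ccctatatgg and ccttgtttgg, which each depart from the strict form at 1 base and were not counted. Among 18 contractile genes with such a sequence 1 had a match, and among all 32851 promoters 482 (1.47%). A match is a description of these letters and no evidence of binding.

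Since edgeR called no gene, the 10 genes with the smallest p in each direction are given, among those with the same order in all 4 groups and a mean of at least 20 CPM in the higher class. None of the 20 was called by edgeR with its filter on low counts, while DESeq2 called 13 of them, namely those with higher levels other than Bcr and Timp3 and, with lower levels, Sec24a, Aar2, Clpb, Ppil1 and Trmt13. Without the filter edgeR called Ccnd1 and Sorbs2. With higher levels in Rgs5-high cells these were Ccnd1, Casq2, Tnfrsf21, Edn3, Emid1, Lrrc17, Pcdhga7, Pcdhgb4, Bcr and Timp3. Ccnd1, which encodes cyclin D1 of the G1 phase, was at 589, 598, 343 and 315 CPM in Rgs5-high cells of bladder_352s, bladder_689s, bladder_881s and bladder_515s, and at 73.7, 0, 14.8 and 1.84 CPM in Rgs5-low cells. The 4 Rgs5-high means stood above all 4 Rgs5-low means, as they did in 3.01% of all genes in either direction. The log2 fold change was 5.40 ± 1.17 (unadjusted p 0.00092 and adjusted p 1 by edgeR, adjusted p 1.1e-05 by DESeq2). Reads came from 17 of 32 and 17 of 59 cells, and 1 cell gave 61% of the reads in Rgs5-low cells. Of 11 cell cycle genes only 3 had enough reads to be tested, and their median log2 fold change was -0.14.

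Casq2 encodes calsequestrin of the sarcoplasmic reticulum, which buffers stored calcium. It was at 417, 109, 112 and 149 CPM in Rgs5-high cells against 42.7, 0, 0.431 and 0.914 CPM, with a log2 fold change of 6.47 ± 1.59. Over all cells of the classes 12 of 37 and 6 of 77 had a Casq2 read, and 1.85% of cells outside cluster 10. Edn3, which encodes the peptide endothelin-3, was at 87.4, 194, 166 and 623 CPM against 0.29, 2.79, 17.1 and 9.48 CPM. No Rgs5-low group reached any Rgs5-high group in either gene, and the classes stood apart, in either direction, in 3.01% of all genes. The same order within every group was a condition for naming these genes. Edn3 is also read in 72.5% of cells outside cluster 10. Timp3, an inhibitor of metalloproteinases held in the matrix, was the most abundant of the 10, at 1124, 3488, 2223 and 6785 CPM against 881.2, 1821, 1810 and 2890 CPM, with a log2 fold change of 0.73 ± 0.23. Tnfrsf21 (death receptor 6), Emid1, Lrrc17 and Bcr, a GTPase-activating protein, had log2 fold changes of 7.19, 3.35, 3.43 and 2.00. Pcdhga7 and Pcdhgb4 belong to 1 cluster of protocadherin genes that share their last exons, so their reads cannot be assigned to a single member. They count as 1 locus of uncertain identity, with log2 fold changes of 3.68 and 3.61.

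With lower levels in Rgs5-high cells the 10 genes were Sec24a, Vim, Dstn, Acta2, Aar2, Sorbs2, Clpb, Ppil1, Slk and Trmt13. Vim, Dstn, Acta2 and Sorbs2 are abundant genes of the cytoskeleton. Vim, the intermediate filament vimentin, was at 2713, 2347, 1162 and 1318 CPM in Rgs5-high cells against 3479, 3353, 1932 and 3342 CPM, with a log2 fold change of -0.90 ± 0.22. Dstn, the actin-severing protein destrin, was at 1843, 1387, 1309 and 1598 CPM against 2321, 3581, 2827 and 2846 CPM. All 4 Rgs5-high means of Dstn stood below all 4 Rgs5-low means, whereas for Vim the ranges overlapped. The classes stood apart, in either direction, in 3.01% of all genes. Sorbs2, an adaptor of actin filaments, was at 584, 902, 1011 and 1027 CPM against 593, 4923, 2420 and 2815 CPM, so the group with the most cells showed almost no difference. The other 6 genes, Sec24a of vesicle coats, the splicing factors Aar2 and Ppil1, the mitochondrial chaperone Clpb, the kinase gene Slk and the tRNA methyltransferase gene Trmt13, were read in 7 to 19 of the 59 Rgs5-low cells and in 2 to 9 of the 32 Rgs5-high cells. Their log2 fold changes from -5.58 to -7.74 rest on these few cells, and 1 cell gave between 16.2% and 51.7% of the reads of such a gene in the Rgs5-low class.

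**Figure D4:**
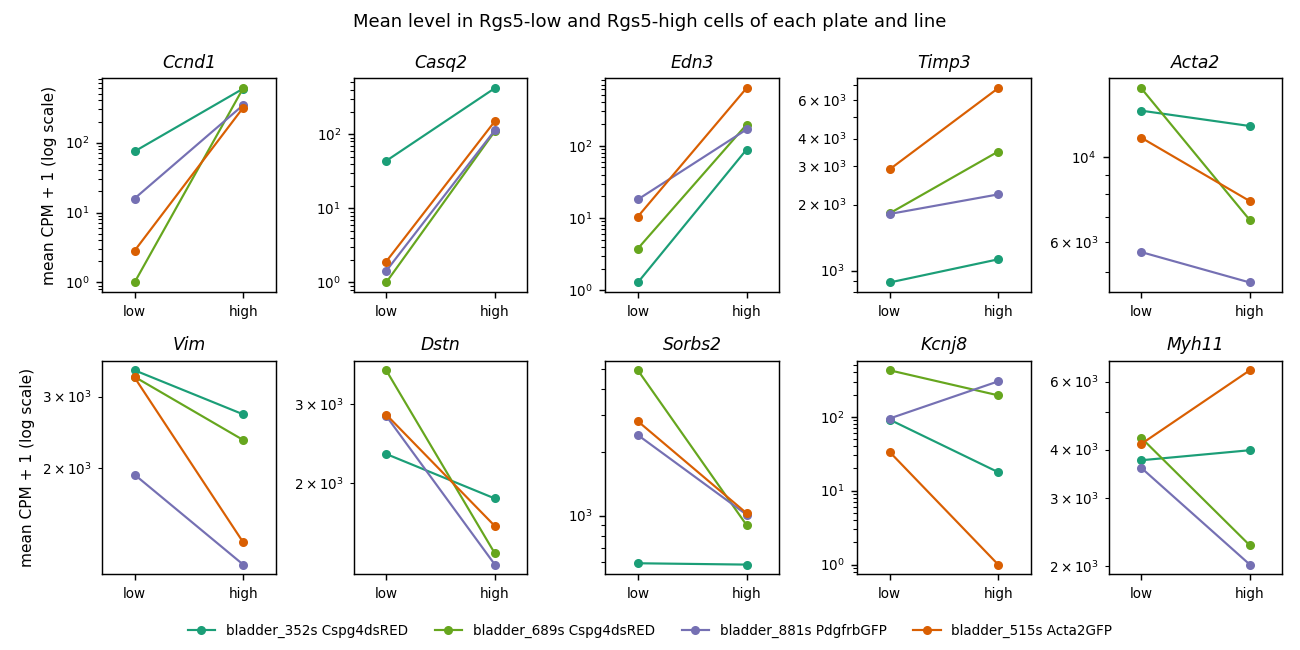
Mean level of 10 genes in Rgs5-low and Rgs5-high cells (x axis) of each of the 4 groups of plate and line, as CPM + 1 on a log scale (y axis); each line joins both classes of 1 group. Ccnd1, Casq2, Edn3 and Timp3 are higher and Acta2, Vim, Dstn and Sorbs2 lower in Rgs5-high cells in 4 of 4 groups, while Kcnj8 and Myh11 go both ways.

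The other gene lists were read through the same counts, with 0 genes called in each by edgeR. DESeq2 called at most 1 gene per direction in any list, while over all genes it called 1.36% higher and 1.82% lower. Among the list members called were Foxf1, Ptgir, Rgs16, Nrp1, Bmpr2 and Lama2, which were higher, and Mef2d, which was lower. Genes named here from these lists were picked after their values were seen. Of 25 potassium, calcium and chloride channel genes 19 were tested, at a median log2 fold change of -0.99. Ano1, the calcium-activated chloride channel of smooth muscle, was at 207, 195, 664 and 1099 CPM in Rgs5-high against 55.2, 64.8, 278 and 58 CPM in Rgs5-low cells (log2 fold change 2.22 ± 0.76). The potassium channel subunit gene Kcnab1 went the other way, at 57.3, 85.8, 361 and 166.5 CPM against 203, 582, 496 and 354 CPM. Both kept their order in 4 of 4 groups. Of 36 vasoactive receptors 13 were tested at a median of -0.17. The prostacyclin receptor gene Ptgir was at 165 ± 45.3 against 29.7 ± 39 CPM and the sphingosine phosphate receptor gene S1pr3 at 296 ± 191 against 656 ± 398 CPM (mean ± SD over 4 groups).

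Of 20 genes of RGS proteins and G proteins 12 were tested at a median of 0.29. Rgs4, a relative of Rgs5 that lies next to it on chromosome 1, was alike in both classes, at 1312 ± 407 and 1340 ± 509 CPM and a log2 fold change of -0.18 (95% interval -0.91 to 0.55). It was read in 33 of 37 and 66 of 77 cells. Rgs16 was at 219 ± 214 against 13 ± 24 CPM, but had no read in the Acta2GFP group. The Notch pathway (13 of 20 genes tested), the PDGF pathway (7 of 8), and the TGF-beta and BMP pathway (18 of 25) had median log2 fold changes of -0.15, -0.25 and -0.16, near that of all genes. In these pathways 0 genes had an unadjusted edgeR p under 0.05, against 2.94% of all genes. Among 12 elastic fibre genes 9 were tested, 8 were below 0 and the median was -1.47, beside 4091 of 7151 and -0.22 over all genes. Emilin1, an elastin-associated glycoprotein, was at 104 ± 72.8 against 322 ± 241 CPM. Basement membrane genes (15 of 20 tested) had a median of -0.65. Of 21 mural and muscle transcription factors tested, 13 were above 0, as were 3060 of 7151 over all genes. Foxf1, a forkhead factor of visceral mesenchyme, was at 39.5, 94.9, 28.2 and 187 CPM against 0.326, 0, 2.85 and 37.5 CPM. Over all cells of the classes it reached 20 CPM in 5 of 37 and 5 of 77 cells, at means of 55.5 and 37.8 CPM. Foxf1 was also read in 56.2% of cells outside cluster 10. Immediate-early genes had a median of 0.001 and heat shock genes of -0.15. Of these, 1 of 23 and 2 of 13 genes were lower in Rgs5-high cells at an unadjusted edgeR p under 0.05, against 1.78% of all genes.

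Markers of other cell types were checked in the same cells. The summed level of 15 fibroblast genes ranged over the 4 group means from 3092 to 10055 CPM in Rgs5-high and from 4506 to 7172 CPM in Rgs5-low cells. It was lower in Rgs5-high cells in 3 groups and higher in bladder_881s. Of the 14 fibroblast genes tested 13 had a log2 fold change below 0, with a median of -0.87 (over all genes 4091 of 7151 and -0.22). Pdgfra, which defines fibroblasts, had a mean of 17.2 and 10.5 CPM in the classes and did not reach 200 CPM in any of their cells, against a mean of 605 CPM outside cluster 10. The summed level of 11 urothelial genes was 160 and 219 CPM in Rgs5-high cells of bladder_352s and bladder_689s, against 11 and 15.6 CPM in Rgs5-low cells, and 0 to 7.37 CPM in both classes of the other groups. The sum of 11 immune genes was 185 against 115 CPM in bladder_689s and 89 against 3.51 CPM in bladder_881s, and it was lower in Rgs5-high cells of the other groups, at 21.1 against 45.3 and 0 against 33.4 CPM. Glial genes summed to 3.87 to 18.2 CPM and 3.13 to 168 CPM. The part of these cell types in the results was not tested. Endothelial genes summed to 772 to 1554 CPM and 685 to 1338 CPM, with Cdh5 at 1.53 and 0.408 CPM, and the immune gene Ptprc was at 0.938 and 0.27 CPM. Of the genes of visceral muscle, the receptor genes Chrm2 and Tacr2 and the transcription factor gene Nkx2-3 had no read in the 91 cells entered, and the receptor gene Chrm3 had reads in 1 cell. The purinergic receptor gene P2rx1 was read in 15 of 37 Rgs5-high and 44 of 77 Rgs5-low cells, at means of 354 and 551 CPM. Without the 25% of cells highest in fibroblast genes edgeR called 0 of 6079 genes, with 171 at an unadjusted p under 0.05. The part of fibroblast RNA in the comparison was not tested.

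Marker genes were also counted together in the same cell, at 200 CPM or more each. All 5 Rgs5-high cells with Kcnj8 also had Abcc9, while 1 of the 10 Rgs5-low cells with Kcnj8 did. At least 2 of Kcnj8, Abcc9, Higd1b and Vtn were found in 6 of 37 Rgs5-high cells (16.2%, exact 95% interval 6.19% to 32%) and in 1 of 77 Rgs5-low cells (1.3%, 0.0329% to 7.02%). None of these 4 genes was found in 21 of 37 and 61 of 77 cells. Myh11 was under 200 CPM in 5 Rgs5-high cells (13.5%) and in 1 Rgs5-low cell (1.3%). Of these 5 cells 2 had Kcnj8 and 3 had Abcc9 at 200 CPM or more. Thus 32 of 37 Rgs5-high cells carried Myh11 at 200 CPM or more, and 9 of these also Higd1b.

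The Rgs5-high cells with the least Myh11 differed among themselves. A C57BL6 cell of plate bladder_443s had no Myh11, Tagln or Cnn1 read beside 6547 CPM of Rgs5, 2909 CPM of Kcnj8 and 3403 CPM of Abcc9, and still 4084 CPM of Acta2. A Cspg4dsRED cell of plate bladder_689s had 34.5 CPM of Myh11 with 1553 CPM of Kcnj8, and another cell of that plate had 36.9 CPM of Myh11 with no Kcnj8 read and 958 CPM of Abcc9. Another cell of the same plate, with 222.5 CPM of Myh11, held the lowest Acta2 level of all Rgs5-high cells, 450 CPM, beside 1006 CPM of Vtn. A PdgfrbGFP cell of plate bladder_881s had the highest Rgs5 level, 6597 CPM, with 52.7 CPM of Myh11 and 6.58 CPM of Kcnj8. The remaining cell under 200 CPM of Myh11, a PdgfrbGFP cell of the same plate, had 83.6 CPM of Myh11, 362 CPM of Rgs5, no Kcnj8 read, 13.9 CPM of Abcc9 and 4001 CPM of the fibroblast gene Dcn. These are single cells and carry no replicate.

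**Figure D5:**
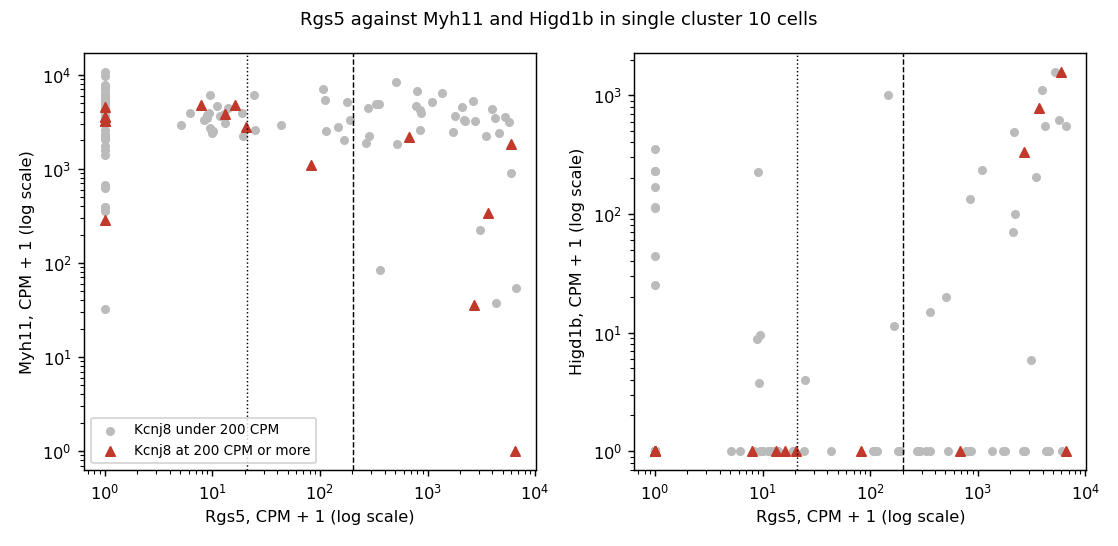
Rgs5 level of each of the 125 cluster 10 cells (x axis) against Myh11 (left) and Higd1b (right), all as CPM + 1 on log scales; triangles are cells with Kcnj8 at 200 CPM or more, and vertical lines mark 20 and 200 CPM of Rgs5. Triangles lie on both sides of the limits, and the lowest Myh11 levels stand mostly at the right.

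Within the Rgs5-high class several markers were higher in the cells with most Rgs5, given here as a description without a test. Higd1b reached 200 CPM in 11 of the 23 cells at 1000 CPM of Rgs5 or more and in 0 of the 14 cells below. Edn3 did so in 8 and 0 cells, and Ccnd1 in 12 and 3 cells. Median Ndufa4l2 was 783 and 308 CPM. Cnn1, the calponin gene, had the opposite order, with medians of 7.46 and 938 CPM. Desmin (Des) had medians of 936 and 2371 CPM. Some genes named as higher in Rgs5-high cells also had lower means in the cells with most Rgs5. Among them were Casq2 (147 against 262 CPM), Emid1 (277 against 367 CPM) and Lrrc17 (79.5 against 196 CPM).

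The 11 cells between the limits resembled neither class in every marker. All 11 had Myh11 and Acta2 at 200 CPM or more, with medians of 2944 and 10343 CPM. Kcnj8 had a read in 5 of them and Higd1b in 3, while Abcc9 stayed at or under 17.1 CPM. Median Actg2 was 12.3 CPM, against 3.12 CPM in Rgs5-high and 632 CPM in Rgs5-low cells, and mean Ndufa4l2 was 382 CPM, against 730 and 296 CPM.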

How the data were processed

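Raw read counts per gene were deposited by the authors as 1 table of 1479 cells, 46517 gene rows and 92 ERCC spike-in rows. According to the study's methods, reads were mapped to GRCm38 with TopHat2 and counted with featureCounts after reads called doublets had been removed with samtools; the submitters' processing notes name Bowtie and Bowtie2. Annotation release and strand setting are not given in the sources used here, so overlapping genes can share reads. Counts have no molecular identifiers. Of the columns, 0 were without a sample, and no cells were identical in their counts.

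CPM is counts per 1000000 endogenous reads of a cell. Gene names and positions came from GENCODE M21 (46005 rows matched). Counts were summed per plate, line and class, Rgs5 was kept in the library size and left out of the test, and sums were compared with edgeR 4.0.16 (TMM, filterByExpr, quasi-likelihood test, plate and line as a block) in R 4.3.3. Standard errors were derived from the F statistic. The test was run on simulated sums with a single fixed dispersion and with changes placed only in abundant genes. That check therefore does not cover genes read in few cells. DESeq2 1.42.0, limma 3.58.1, other scalings, filters, thresholds and cell sets, and leaving out each group were alternatives. A test of whether the lines differ was set to need 2 groups in both Cspg4dsRED and PdgfrbGFP and was not run, since PdgfrbGFP had 1. Depth per cell ran from 50267 to 439747 endogenous reads in cluster 10. Share intervals are exact Clopper-Pearson 95% intervals and cover counting error only. Python 3.11.15 with pandas 2.3.3, numpy 2.4.6, scipy 1.17.1 and matplotlib 3.10.9 was used for tables and plots.

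Named genes were Rgs5, Kcnj8 and Myh11, members of the marker lists, and, with fewer than 5 genes called in a direction, the 10 with the smallest p that had the same sign in all groups and at least 20 CPM in the higher class. The cells, lists and rules were chosen with earlier results of these data known. Some list members are counted in the totals and not reported here by name.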

Additional observations from a re-analysis of the deposited data

Results flagged for a closer look

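In 22 named genes, 3 values were checked for a group far from the other 3 (the mean CPM in each class and their difference in log2(CPM + 1)). Of these 66 values 8 stood apart by Dixon's criterion, which chance alone meets in about 1 of 20 groups. Casq2 was flagged 3 times in Cspg4dsRED cells of plate bladder_352s. Its mean was 417.4 CPM in Rgs5-high cells (108.9 to 148.7 in the other groups) and 42.67 CPM in Rgs5-low cells (0 to 0.914), and its difference was 3.26 (6.29 to 6.78). In PdgfrbGFP cells of plate bladder_881s the difference of Edn3 was 3.21 (5.69 to 6.10), and Vim in Rgs5-low cells was at 1932 CPM (3342 to 3479). In Cspg4dsRED cells of plate bladder_689s, Rgs5-low cells held 339.5 CPM of Sec24a (55.01 to 97.2) and 425.4 CPM of Kcnj8 (32.6 to 93.7), and Rgs5-high cells held 189.9 CPM of Clpb (0 to 1.90). That plate and line had 8 Rgs5-high and 6 Rgs5-low cells.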

How the results depend on the processing

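Of 18 alternatives to the comparison, 16 called 0 genes in both directions by edgeR or limma. DESeq2 called 97 genes higher and 130 lower, and edgeR without a filter on low counts called 1 higher and 5 lower; the cause was not tested. Leaving out 1 group of plate and line (leave-one-out) gave 0 calls each time. The median log2 fold change then lay between -0.63 and -0.37 for contractile genes and between 0.57 and 1.77 for pericyte markers, lowest for the latter without bladder_689s. The share of Rgs5-low cells with an Abcc9 read was 16.9% after thinning to 50000 reads. Of the named genes, Kcnj8 turned to 0.27 with at least 1 cell per class, and Myh11 to 0.064 with the median gene at 0 and to 0.068 without bladder_689s. No other named gene changed its direction under the alternatives that could be fitted. The DESeq2 interaction of class with line was not run, since it was set to need 2 groups per line and PdgfrbGFP had 1. Both classes of a plate and line were paired by the block of the test. By replicate number no paired analysis was possible because these numbers only name single cells. Acta2 passed the edgeR adjusted p, but not the fold limit, with sums per line (log2 fold change -0.66, adjusted p 0.00935) and without a filter (-0.61, 5.58e-11), as did Vim (-0.98, 0.000455) and Dstn (-0.89, 0.0212) without a filter. For Acta2 the adjusted p lay between 0.76 and 1 under the other alternatives. Precision is limited by 4 groups and by genes read in few cells.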
